A study of Mus musculus with 2 samples.

Results

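The genes described here are the Wnt ligands, the R-spondins, the Frizzled receptors with their co-receptors Lrp5 and Lrp6, the secreted antagonists of the Sfrp and Dkk families with Frzb and Wif1, and the scaffold genes Axin1 and Axin2. They were chosen by gene symbol with at least 1 protein-coding transcript, which gave 47 of the 55536 annotated genes in the tables. Of 48 genes whose symbol matched, 1 had no protein-coding transcript and was left out. The members are 19 Wnt genes, 4 R-spondins, 10 Frizzled receptors, Lrp5 and Lrp6, 6 genes of the Sfrp, Frzb and Wif1 group, 4 Dkk genes and 2 Axin genes. They were measured by total RNA sequencing of the gastrocnemius, a large calf muscle of mainly fast fibres, from 2 female B6CASTF1/J mice at an age of 2 months. These mice are first-generation offspring of a cross between the B6 and CAST strains, and the labels give no treatment and no second group. Each animal gave 1 library from 300 ng of RNA with ERCC spike-in RNA added. The labels number the libraries as biological replicates 1 and 2 but give both the same donor record, so it is not certain from the labels alone that all of the spread between them is between mice. They are called animal 1 and animal 2 here.

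Wnt proteins are lipid-modified secreted ligands that bind Frizzled receptors on the cell surface. With Lrp5 or Lrp6 as co-receptor, the signal stops the breakdown of beta-catenin by a complex built on Axin, and beta-catenin then acts on target genes with TCF factors. Sfrp proteins, Frzb and Wif1 bind Wnts outside the cell, Dkk proteins act on the co-receptors, and R-spondins keep Frizzled receptors at the surface by way of Lgr receptors. In skeletal muscle the pathway is known from limb muscle formation, satellite cell function and the neuromuscular junction.

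The gene tables held 45014831 expected counts in animal 1 and 47771308 in animal 2. The tissue was checked with 10 skeletal muscle fibre markers, which were all present and summed to 70560 TPM in animal 1, against 67329 TPM in animal 2. These markers are not particular to the gastrocnemius, so they check for skeletal muscle only. TPM is a level corrected for library size and transcript length, so it can be compared between genes. In whole muscle, fewer cells of a type and less RNA per cell cannot be told apart. With 1 group of 2 libraries no test between conditions was possible, and an SD rests on 2 values.

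The members were expressed at low levels and only part of each ligand family was present. A member was called detected at 1 TPM or more in both animals, and 20 of 47 members (42.6%) passed, against 10240 of 22028 protein-coding genes (46.5%). The median level of the detected members was 3.26 TPM, and that of the detected protein-coding genes was 7.75 TPM. A further 4 members passed in 1 animal only, 23 passed in neither, and 6 of these had no read in either animal. All 47 members summed to 130 TPM in animal 1 and 121 in animal 2. Receptors and co-receptors held the highest places: Lrp6, Fzd9, Fzd4 and Lrp5 were the members with a mean above 10 TPM. The deposited posterior SD of the read count was 0 for every member.

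**Figure D1:**
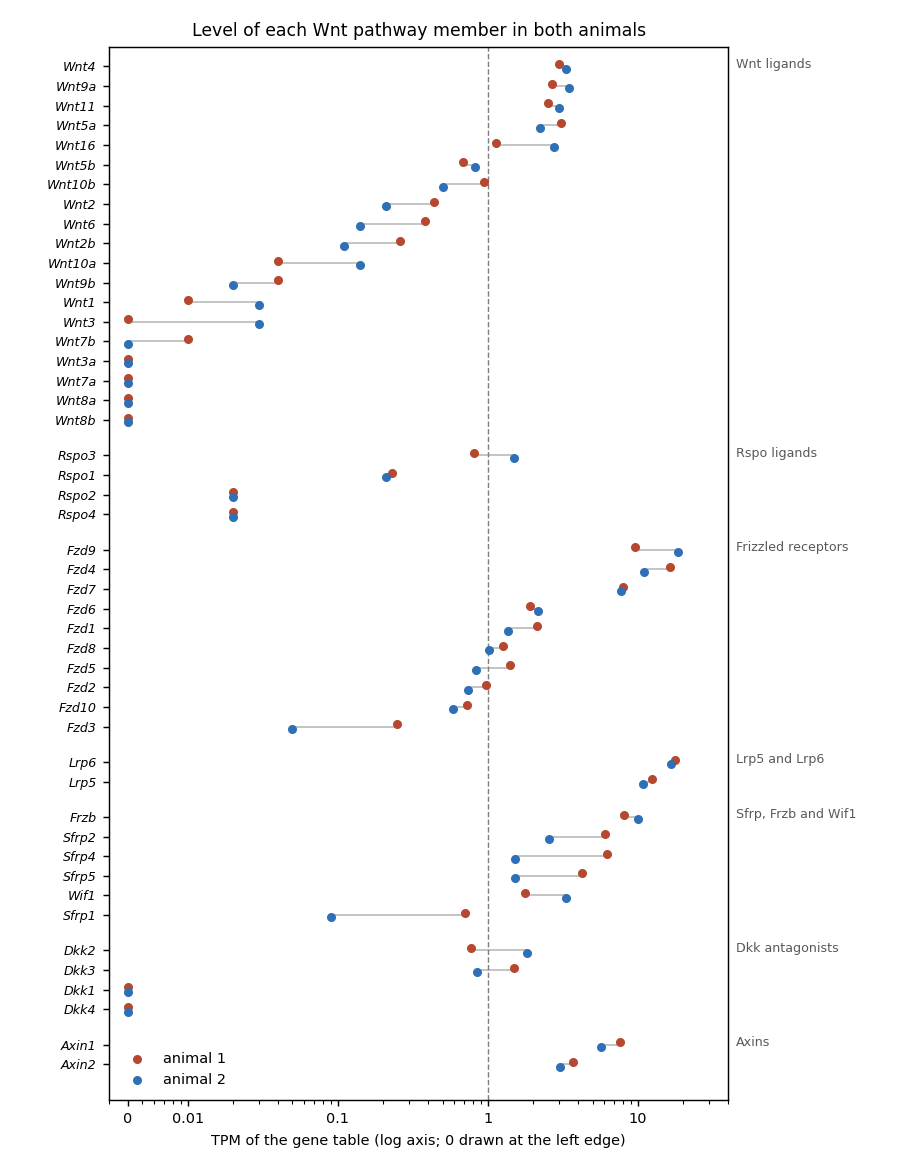
TPM of each of the 47 members in animal 1 (red) and animal 2 (blue) on a log axis, ordered by mean level within each family; grey lines join the animals and the dashed line marks 1 TPM. Lrp6 is the highest member by mean at 17.2 TPM, 20 members lie at or right of the line in both animals, and 6 members have no read in either.

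Among the Wnt ligands, 5 of 19 were detected. Wnt4, a ligand also known to act at the neuromuscular junction, had 2.98 TPM in animal 1, against 3.31 TPM in animal 2 (mean 3.15 ± 0.233, SD, n = 2). Wnt9a, a ligand with roles in joint and limb formation, had 2.67 TPM in animal 1 and 3.48 in animal 2. Wnt11, a ligand of planar polarity signalling, had 2.51 TPM in animal 1, against 2.97 TPM in animal 2. Wnt4, Wnt9a and Wnt11 differed by less than 1.5-fold between the animals. Wnt5a, the best-known ligand of signalling without beta-catenin, had 3.07 TPM in animal 1 and 2.22 in animal 2. Wnt4, Wnt9a, Wnt11 and Wnt5a had means between 2.65 and 3.15 TPM, and their order was not the same in both animals. Wnt16, a ligand known for its role in cortical bone, stood apart from the other 4, with 1.14 TPM in animal 1, against 2.78 TPM in animal 2.

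The other 14 Wnt genes were below 1 TPM in both animals. Wnt5b, a close relative of Wnt5a, had 0.68 TPM in animal 1 and 0.82 in animal 2, and Wnt10b, a ligand that holds back fat cell formation, had 0.94 TPM in animal 1, against 0.50 TPM in animal 2. Wnt2, Wnt6 and Wnt2b lay between 0.11 and 0.44 TPM. Wnt10a, Wnt9b, Wnt1, Wnt3 and Wnt7b had 0 to 7 reads per library. Wnt3a, Wnt7a, Wnt8a and Wnt8b had no read in either library. For these 4 genes a count of 0 allows up to 3 counts, which is 0.069 TPM in animal 1 and 0.0649 in animal 2 for Wnt7a and less for the other 3. Wnt7a is a ligand known to act on satellite cells in injured mouse muscle, and it was not detectable at this depth.

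The R-spondins were nearly absent apart from Rspo3. Rspo3, an R-spondin known in blood vessels, had 0.81 TPM in animal 1, against 1.49 TPM in animal 2, from 77 and 148 reads. Rspo1 had 0.23 TPM in animal 1 and 0.21 in animal 2, from 15 and 7 reads, and Rspo2 and Rspo4 had 2 reads each per library. Rspo3 held 75% of the family's TPM in animal 1 and 85.6% in animal 2.

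The Frizzled receptors were the family with the highest summed level, and 6 of 10 were detected. Fzd9, a receptor known in bone formation, had 9.55 TPM in animal 1, against 18.7 TPM in animal 2, from 789 and 1641 reads. Fzd4, the receptor that also binds Norrin in blood vessels, had 16.4 TPM in animal 1 and 11 in animal 2, from 4095 and 2910 reads. In TPM the order of the pair was therefore reversed between the animals: Fzd4 led in animal 1 and Fzd9 led in animal 2. Fzd4 had more reads in both animals, over a longer transcript (6720 nt, against 2293 nt for Fzd9). Fzd7, known as a receptor of satellite cells in mice, was at almost the same level in both, with 7.94 TPM in animal 1, against 7.76 TPM in animal 2. After these 3 receptors the level dropped to about 2 TPM, with Fzd6, a receptor of planar polarity, at 1.92 TPM in animal 1 and 2.16 in animal 2. Fzd1 had 2.12 TPM in animal 1, against 1.36 TPM in animal 2, and Fzd8 had 1.26 TPM in animal 1 and 1.02 in animal 2. In TPM of the gene tables Fzd6 and Fzd1 changed places between the animals, and Fzd8 lay below both in each. The order of Fzd6 and Fzd1 depended on the measure. Reads, which are not corrected for length, put Fzd1 first in both animals. Fzd1 had 327 in animal 1 and 223 in animal 2, against 190 and 154 for Fzd6. The second transcript tables, described below, put Fzd6 first in both. There Fzd6 had 3.15 TPM in animal 1 and 3.83 in animal 2, against 2.97 and 1.76 for Fzd1. Fzd5 reached 1 TPM in animal 1 only (1.41 TPM in animal 1, 0.83 TPM in animal 2), and Fzd2 and Fzd10 stayed between 0.59 and 0.98 TPM. Fzd3, a planar polarity receptor known for axon guidance, was the lowest, with 0.25 TPM in animal 1, against 0.05 TPM in animal 2.

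The co-receptors were close between the animals. Lrp6 had 17.7 TPM in animal 1 and 16.7 in animal 2 (17.2 ± 0.651, SD, n = 2). Lrp5, the co-receptor known for its effect on bone mass, had 12.4 TPM in animal 1, against 10.9 TPM in animal 2 (11.6 ± 1.05, SD, n = 2). Lrp6 was the higher in both animals and held 58.8% of the pair's TPM in animal 1 and 60.6% in animal 2.

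Among the secreted Wnt-binding antagonists, 5 of 6 were detected and the makeup differed between the animals. Frzb, also named Sfrp3 and first known from cartilage, was the highest in both, with 8.08 TPM in animal 1 and 10.1 in animal 2. Sfrp2, a secreted antagonist of connective tissue cells, had 6.10 TPM in animal 1, against 2.55 TPM in animal 2, from 437 and 193 reads. Sfrp4, another antagonist of this family, had 6.28 TPM in animal 1 and 1.52 in animal 2, from 391 and 93 reads. Sfrp5, which is also known as a secreted product of mouse fat, had 4.28 TPM in animal 1, against 1.51 TPM in animal 2, from 290 and 109 reads. All 3 were higher in animal 1, while Wif1 was higher in animal 2. Wif1, a Wnt-binding inhibitor unrelated to Frizzled in its binding domain, had 1.77 TPM in animal 1 and 3.31 in animal 2, from 129 and 254 reads. Sfrp1 was below 1 TPM in both, with 0.71 TPM in animal 1, against 0.09 TPM in animal 2, from 114 and 15 reads.

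Of the Dkk genes, Dkk2 and Dkk3 each reached 1 TPM in 1 animal. Dkk2, which binds Lrp5 and Lrp6, had 0.78 TPM in animal 1 and 1.83 in animal 2, from 106 and 264 reads. Dkk3, a divergent member that is not a classical inhibitor of the co-receptors, had 1.49 TPM in animal 1, against 0.85 TPM in animal 2, from 183 and 111 reads. Dkk3 was therefore the leading Dkk gene in animal 1 and Dkk2 in animal 2. Dkk1 and Dkk4 had no read in the gene tables. For Dkk1 a count of 0 allows up to 0.0342 TPM in animal 1 and 0.0322 in animal 2, and for Dkk4 up to 0.0656 TPM in animal 1, against 0.0616 TPM in animal 2. The second transcript tables, which estimate counts from reads in another way, gave Dkk4 0.131 TPM in animal 1 and 0.0307 in animal 2.

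Both Axin genes were detected. Axin1, the scaffold of the beta-catenin destruction complex, had 7.66 TPM in animal 1, against 5.71 TPM in animal 2, from 786 and 720 reads. Axin2, a second scaffold that is itself a common target of beta-catenin, had 3.73 TPM in animal 1 and 3.04 in animal 2, from 358 and 380 reads. The read ratios after scaling were close to 0 on the log2 scale for both, at 0.10 for Axin1 and -0.11 for Axin2. The TPM values of the pair differed more than the reads. TPM divides reads by a length that depends on the transcripts assigned to the gene.

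Summed by family, the Frizzled receptors held 42.6 TPM in animal 1, against 44.2 TPM in animal 2. Lrp5 and Lrp6 together held 30.0 TPM in animal 1 and 27.6 in animal 2. The Sfrp, Frzb and Wif1 group held 27.2 TPM in animal 1, against 19.1 TPM in animal 2. The receptor and co-receptor sums were thus close between the animals, while the antagonist sum was the one with the widest gap in TPM. The 19 Wnt ligands together held 15.2 TPM in animal 1 and 16.8 in animal 2, about the level of Lrp6 alone. The Axins held 11.4 TPM in animal 1, against 8.75 TPM in animal 2, from 1144 and 1100 reads. In the second transcript tables the Axin sums were closer, at 14.4 TPM in animal 1 and 13.2 in animal 2. The Dkk genes held 2.27 TPM in animal 1 and 2.68 in animal 2, and the R-spondins 1.08 TPM in animal 1, against 1.74 TPM in animal 2.

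The makeup of some families differed between the animals. Fzd9 held 22.4% of the Frizzled TPM in animal 1 and 42.3% in animal 2. Fzd4 held 38.6% in animal 1 and 24.9% in animal 2. Frzb held 29.7% of its group in animal 1 and 52.9% in animal 2. Sfrp2, Sfrp4 and Sfrp5 had larger shares of that group in animal 1 than in animal 2. Wnt16 held 7.51% of the Wnt ligand TPM in animal 1 and 16.6% in animal 2, whereas Wnt4 held 19.6% in animal 1 and 19.7% in animal 2. Axin1 held 67.3% of the Axin TPM in animal 1 and 65.3% in animal 2.

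**Figure D2:**
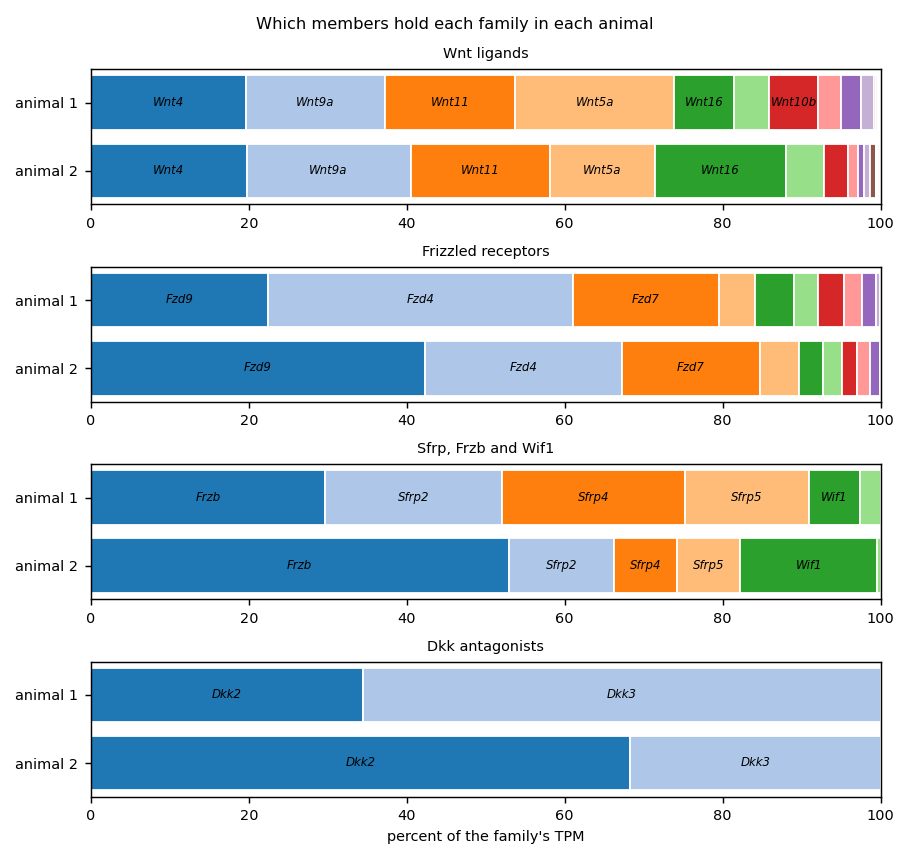
Percent of each family's TPM held by each member, as stacked bars from 0 to 100%, for animal 1 above animal 2, in 4 families; members with 5% or more are named. Fzd9 takes 22.4% of the Frizzled bar in animal 1 and 42.3% in animal 2, and Dkk2 takes 34.4% of the Dkk bar in animal 1 and 68.3% in animal 2.

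The difference between the animals was taken as the log2 ratio of scaled reads, animal 1 over animal 2, for the 25 members with a mean of 100 reads or more. It has no replicate check, and its interval is an exact binomial 95% interval that covers counting error only. A member was called apart at 2-fold or more. Of the 25 members, 6 were called (24.0%), against 323 of 10872 genes (2.97%). Sfrp2, Sfrp4 and Sfrp5 were higher in animal 1, where 2.18% of all genes were called, and Wnt16, Fzd9 and Dkk2 were lower in animal 1, where 0.791% were called. The range of 100 to 1000 reads was also taken alone: 5 of 20 members were called there, against 249 of 6760 genes (3.68%). The median log2 ratio was -0.03 over the 25 members and -0.02 over all 10872 genes.

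Sfrp4 had the largest called ratio, 2.04 on the log2 scale (interval 1.72 to 2.39), which is 4.12-fold. Sfrp5 followed at 1.38 (1.06 to 1.72) and Sfrp2 at 1.15 (0.91 to 1.41). In the other direction Wnt16 stood at -1.37 (-1.81 to -0.97), Dkk2 at -1.34 (-1.68 to -1.01) and Fzd9 at -1.08 (-1.21 to -0.96). The intervals of Sfrp2, Wnt16 and Fzd9 reach inside 2-fold. Just short of the threshold, and lower in animal 1, lay Wif1, which falls short of 2-fold by less than the rounding here (interval -1.32 to -0.69), and Rspo3 at -0.96 (-1.38 to -0.56). Below the minimum of 100 reads, Sfrp1 at 2.86 (2.12 to 3.79) and Fzd3 at 2.07 (1.48 to 2.75) were further apart than any called member. Of all genes with any read, 26.8% were 2-fold or more apart. With Sfrp1, all 4 Sfrp genes of the set were higher in animal 1, while Frzb stood at -0.39 (-0.53 to -0.24).

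The other members with 100 reads or more lay within 2-fold. Lrp6 stood at -0.04 (-0.10 to 0.02), Lrp5 at -0.03 (-0.11 to 0.06) and Fzd7 at -0.08 (-0.19 to 0.03), and these 3 intervals include 0. Fzd4 stood at 0.47 (0.40 to 0.54) and Fzd1 at 0.53 (0.28 to 0.78). Dkk3 stood at 0.69 (0.35 to 1.05). Among the ligands Wnt9a stood at -0.50 (-0.71 to -0.29) and Wnt5a at 0.30 (0.11 to 0.49). The biological coefficient of variation estimated between the libraries over all 10872 genes was 0.194.

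**Figure D3:**
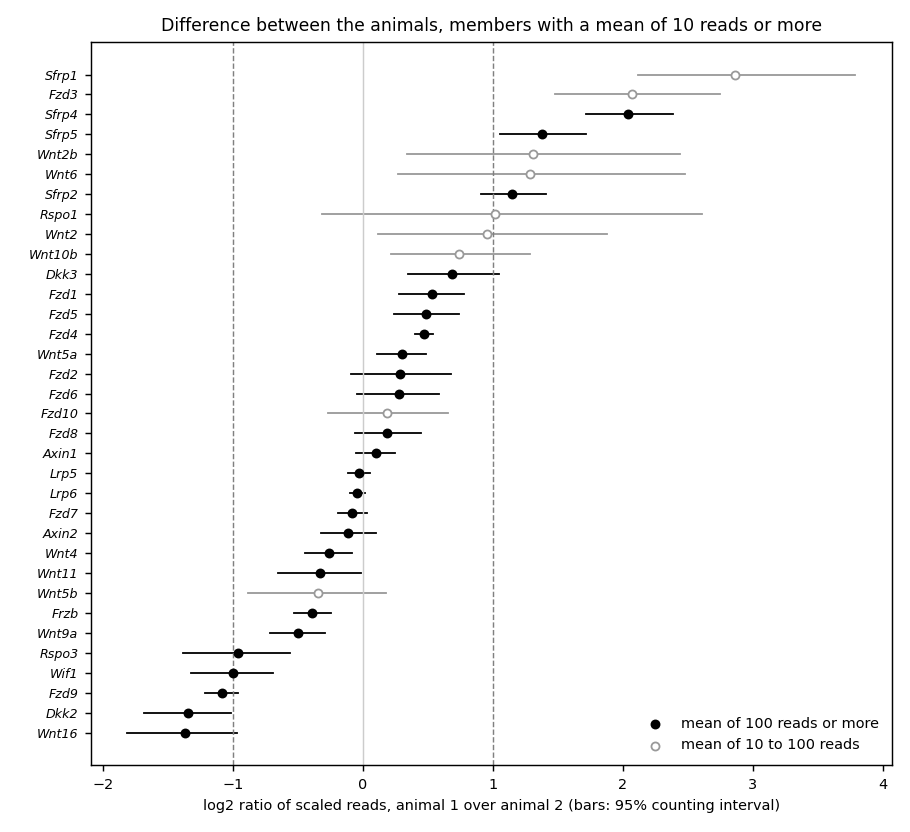
Log2 ratio of scaled reads, animal 1 over animal 2, for members with a mean of 10 reads or more; bars are exact 95% counting intervals, filled points have a mean of 100 reads or more and dashed lines mark 2-fold. Sfrp4 at 2.04 and Wnt16 at -1.37 are the outermost filled points, and Lrp5 and Lrp6 sit at the centre.

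The calls depended in part on the scaling. Under spike-in scaling the median of all genes moved from -0.02 to -0.22, Sfrp2 lost its call at 0.95, and Wif1 at -1.20 and Rspo3 at -1.16 gained one. Fzd9 lost its call with library size alone at -0.97 and with the ratio of gene table TPM at -0.96. Over all genes, calls were higher in animal 1 for 73.4% of calls under the main scaling, 55.9% under spike-in scaling, 81.2% with library size alone, 81.7% with TPM ratios and 62.6% with no filter on low counts. Wif1 at -1.09 and Rspo3 at -1.10 were also called in the second transcript tables, where all 6 called members kept their calls.

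Marker genes of slow fibres and of other cell types also differed between the animals. With 1 ratio per gene, a list that leans to either side shares its direction with some members, which does not link them. All 10 tenocyte markers were lower in animal 1, 3 of them past 2-fold, and the list summed to 131 TPM in animal 1 and 236 in animal 2. Its 2 highest genes were Fmod, with 51.2 TPM in animal 1, against 115 TPM in animal 2, and Thbs4, with 50.7 TPM in animal 1 and 69.9 in animal 2. All 7 slow muscle fibre markers were lower in animal 1 past 2-fold, and the list summed to 854 TPM in animal 1, against 3586 TPM in animal 2. Its 2 highest genes were Myl2, with 370 TPM in animal 1 and 920 in animal 2, and Myl3, with 131 TPM in animal 1, against 642 TPM in animal 2. These 2 lists moved in the direction of Wnt16, Fzd9 and Dkk2, and their part in those ratios was not tested. Of 8 cartilage and bone markers, Sox9 was called lower in animal 1 and Sp7, Bglap and Ibsp had no read, and the list summed to 1.20 TPM in animal 1 and 2.10 in animal 2.

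Other markers moved in the direction of the Sfrp genes. Of 10 adipocyte markers, 8 were called higher in animal 1, and the list summed to 994 TPM in animal 1, against 401 TPM in animal 2. Its 2 highest genes were Lpl, with 194 TPM in animal 1 and 293 in animal 2, and Cfd, with 442 TPM in animal 1, against 27.6 TPM in animal 2. All 7 Schwann cell markers with 100 reads or more were called higher in animal 1, and the list of 10 summed to 257 TPM in animal 1 and 35.7 in animal 2. Of 9 pericyte and smooth muscle markers, 4 were called higher in animal 1, and the list summed to 260 TPM in animal 1, against 163 TPM in animal 2. Its 2 highest genes, Rgs5 with 68.5 TPM in animal 1 and 63.7 in animal 2 and Abcc9 with 44.1 TPM in animal 1, against 44.2 TPM in animal 2, were not among those called. Of 10 fibroblast markers, 2 were called higher in animal 1, and the list summed to 1127 TPM in animal 1 and 790 in animal 2. Its 2 highest genes were Gsn, with 492 TPM in animal 1, against 279 TPM in animal 2, and Dcn, with 178 TPM in animal 1 and 180 in animal 2. No marker of these 4 lists was without reads. Their part in the Sfrp ratios was not tested. Of 10 endothelial markers 1 was called, Vwf, which was higher in animal 1, and no macrophage or satellite cell marker was called. All 7 macrophage markers with 100 reads or more were nevertheless higher in animal 1. Their median log2 ratio was 0.57, against 0.43 for fibroblast and 0.40 for pericyte and smooth muscle markers. The medians were 0.18 for endothelial and 0.14 for satellite cell markers. The endothelial list summed to 126 TPM in animal 1, against 94.3 TPM in animal 2. The macrophage list summed to 66.4 TPM in animal 1 and 41.9 in animal 2, and the satellite cell list to 48.5 TPM in animal 1, against 42.6 TPM in animal 2.

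**Figure D4:**
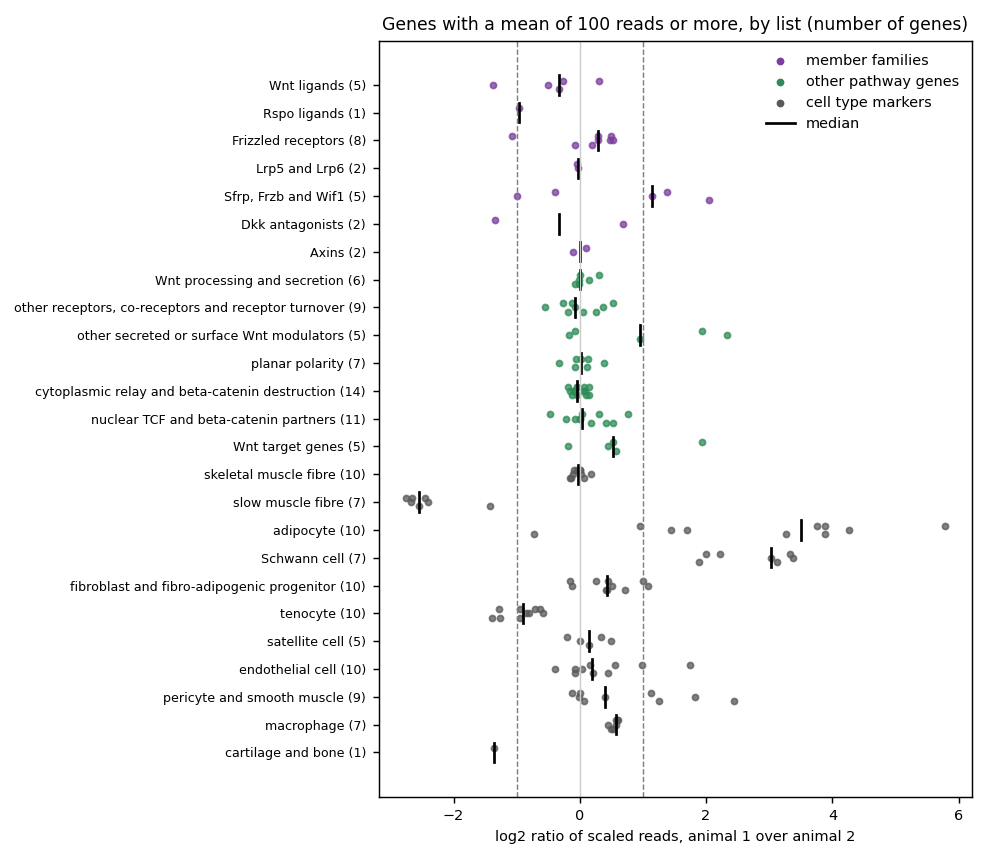
Log2 ratio of scaled reads, animal 1 over animal 2, of each gene with a mean of 100 reads or more, by member family (purple), other pathway list (green) and cell type marker list (grey); numbers in brackets count genes, black ticks are medians and dashed lines mark 2-fold. The slow fibre list has its median at -2.54 and the adipocyte list at 3.51, while the cytoplasmic relay genes lie close to 0.

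Promoter stretches are shown for the called members that the RefSeq promoter table (GRCm38.p6) holds, 2 higher and 3 lower in animal 1, and for Axin2 as the common pathway target. Each is read 5′ to 3′ on the gene's strand and ends at the base before the first annotated exon, and the one for Fzd9 is short because only 67 bases of its window lie before an annotated exon. Capitals mark the GC box GGGCGG, the CCAAT box, which reads ATTGG on the other strand, and the TATA box TATAAA.
Sfrp2, chr3:83766071-83766320, plus strand: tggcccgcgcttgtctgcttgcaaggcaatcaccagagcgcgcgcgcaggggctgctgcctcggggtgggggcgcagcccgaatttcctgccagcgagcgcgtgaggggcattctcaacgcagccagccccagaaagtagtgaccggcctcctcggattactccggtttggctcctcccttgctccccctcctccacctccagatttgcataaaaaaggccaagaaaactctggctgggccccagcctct
Sfrp5, chr19:42202253-42202502, minus strand: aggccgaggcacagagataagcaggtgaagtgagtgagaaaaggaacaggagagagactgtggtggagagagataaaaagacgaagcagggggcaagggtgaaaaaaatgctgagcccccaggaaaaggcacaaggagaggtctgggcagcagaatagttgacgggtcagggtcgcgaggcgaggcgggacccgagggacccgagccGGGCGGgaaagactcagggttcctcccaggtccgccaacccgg
Wnt16, chr6:22287977-22288226, plus strand: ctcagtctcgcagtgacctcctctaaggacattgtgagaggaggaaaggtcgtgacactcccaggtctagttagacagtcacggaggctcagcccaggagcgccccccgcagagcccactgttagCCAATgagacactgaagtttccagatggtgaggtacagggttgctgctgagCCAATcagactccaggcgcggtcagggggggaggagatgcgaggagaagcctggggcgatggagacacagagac
Fzd9, chr5:135251231-135251297, minus strand: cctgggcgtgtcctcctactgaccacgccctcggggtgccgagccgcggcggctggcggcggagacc
Dkk2, chr3:132085042-132085291, plus strand: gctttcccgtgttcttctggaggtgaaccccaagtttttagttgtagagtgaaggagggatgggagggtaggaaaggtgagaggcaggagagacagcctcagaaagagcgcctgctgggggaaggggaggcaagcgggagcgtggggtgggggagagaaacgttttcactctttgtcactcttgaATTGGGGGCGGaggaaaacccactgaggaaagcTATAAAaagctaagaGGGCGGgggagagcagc
Axin2, chr11:108920099-108920348, plus strand: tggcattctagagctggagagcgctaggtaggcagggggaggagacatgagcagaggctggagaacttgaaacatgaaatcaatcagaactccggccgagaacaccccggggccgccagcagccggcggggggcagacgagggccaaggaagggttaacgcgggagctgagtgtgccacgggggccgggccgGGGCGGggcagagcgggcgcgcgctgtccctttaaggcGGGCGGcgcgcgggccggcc

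Dkk2 is the one stretch of these 6 with TATAAA and holds 2 GGGCGG, the first directly after ATTGG. Wnt16 holds 2 CCAAT, Axin2 holds 2 GGGCGG, Sfrp5 holds 1, and Sfrp2 and the short stretch of Fzd9 hold none of these motifs. The full 250 bases searched for Fzd9, of which 67 are shown, hold 1 GC box counting both strands. None of the 6 stretches holds CTTTGA, a form of the core letters bound by TCF factors, on either strand. Other forms were not searched, so this says only that these exact letters are not in these windows. The table had 33 windows for 30 members, and the 250 bases upstream of each start were searched on both strands except for TATAAA, which was searched on the gene's strand. CTTTGA was in 5 of the 33 (15.2%), in Frzb, Fzd1, Wnt5b, Wnt11 and Dkk1, and in 13.8% of all 32851 windows. The GC box was in 24 (72.7%), against 32.7% of all windows, and the median GC content was 68.0% in member windows, against 52.4% in all. The CCAAT box was in 10 (30.3%), against 33.8%, the E-box CAGCTG was in 3 (9.09%), against 13.0%, and the TATA box was in 4 (12.1%), against 7.59%.

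Most other genes of the pathway were close between the animals. Of 76 pathway genes on 7 lists, 7 of them on 2 lists each, 51 were detected and 55 had a mean of 100 reads or more. Of these 55, 2 were called higher in animal 1 and 0 lower, and the median log2 ratio was 0.02. This count is near the shares over all genes (2.18% higher and 0.791% lower in animal 1). The same 2 calls fell among the 5 other secreted or surface modulators with 100 reads or more. The median of these 5, 0.96, is the value of Gpc3, and Gpc4 stood at -0.08 and Gpc6 at -0.17. Whether lists this short differ from each other was not tested. Of 5 such target genes 1 was called, Apcdd1, which is on both lists, and their median was 0.53. Of these 5, 4 were higher in animal 1, and Znrf3 went the other way at -0.19 (-0.39 to 0.02). Axin2, a target that is a member and so not on this list, stood at -0.11 (-0.32 to 0.10). The remaining lists had no call and medians from -0.07 to 0.04. Apcdd1, a membrane-bound Wnt inhibitor, had 3.20 TPM in animal 1 and 0.88 in animal 2 (log2 ratio 1.94, interval 1.64 to 2.26). Trabd2b, a membrane protease that inactivates Wnt proteins, had 2.47 TPM in animal 1, against 0.45 TPM in animal 2 (log2 ratio 2.33, interval 2.05 to 2.64).

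All 6 genes of Wnt processing and secretion were detected, led by the sorting factors Snx3, with 64.2 TPM in animal 1 and 59.1 in animal 2, Vps35, with 21.8 TPM in animal 1, against 21.5 TPM in animal 2, and Vps29, with 16.4 TPM in animal 1 and 16.5 in animal 2. Of the 15 other receptors and turnover genes, 8 were detected, none of them past 2-fold. The highest were Kremen1, the partner receptor of Dkk proteins, with 15.6 TPM in animal 1, against 21 TPM in animal 2, and Ryk, a Wnt-binding receptor, with 19.3 TPM in animal 1 and 17.1 in animal 2. Lgr4, an R-spondin receptor, had 10.4 TPM in both animals. Of the 11 other secreted or surface modulators, 3 were detected: the glypicans Gpc4, with 16.7 TPM in animal 1, against 16.3 TPM in animal 2, Gpc3, with 5.77 TPM in animal 1 and 2.74 in animal 2, and Gpc6, with 1.37 TPM in animal 1, against 1.48 TPM in animal 2.

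Inside the cell, 14 of 15 genes of the cytoplasmic relay and of beta-catenin destruction were detected, none past 2-fold. Ctnnb1, which encodes beta-catenin, had 87.6 TPM in animal 1 and 86.5 in animal 2. Csnk1a1, a kinase that primes beta-catenin for breakdown, had 78.5 TPM in animal 1, against 74.8 TPM in animal 2. Tnks2, which marks Axin for breakdown, had 49.2 TPM in animal 1 and 45.6 in animal 2. Of 10 planar polarity genes 6 were detected, led by Prickle3, with 8.28 TPM in animal 1, against 9.55 TPM in animal 2, Daam1, with 4.67 TPM in animal 1 and 4.58 in animal 2, and Celsr2, with 4.17 TPM in animal 1, against 2.29 TPM in animal 2. Of 13 TCF and beta-catenin partner genes 11 were detected, led by the co-activator gene Bcl9l, with 18.6 TPM in animal 1 and 15.6 in animal 2. The co-repressor Tle1 had 8.74 TPM in animal 1, against 7.16 TPM in animal 2, and Ctnnbip1, an inhibitor of beta-catenin, had 6.86 TPM in animal 1 and 6.82 in animal 2. Of 13 target genes, 7 of them also on another of these lists, 4 were detected. The highest was Tnfrsf19, with 6.62 TPM in animal 1, against 3.99 TPM in animal 2. Ccnd1 had 3.28 TPM in animal 1 and 1.88 in animal 2, and Myc had 2.56 TPM in animal 1, against 1.64 TPM in animal 2. The target genes Sp5, Notum, Lef1 and Lgr5 had means below 0.1 TPM, and Sp5 had no read.

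Gene structure and transcript use were compared for the 20 detected members. Of 10 Frizzled genes, 6 have single-exon coding transcripts only in the annotation. Of the 20 detected members, 7 have 1 annotated transcript and 13 have several. Of these 13, the leading transcript was the same in the first and the second transcript tables for 11, held over 50% of the gene's TPM in 10 and over 90% in 3. Wnt16-201 held 99.0% in animal 1 and 100% in animal 2, and Lrp6-201 held 71.4% in each.

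In Wnt11, Wnt5a and Fzd6 no transcript held over 50% on average in the first tables. Wnt11-205, a protein-coding transcript, held 42.2% of Wnt11 in animal 1 and 16% in animal 2. Transcripts of Wnt11 not annotated as protein-coding held 23.1% in animal 1 and 67.8% in animal 2. In the second tables they held 21.3% in animal 1 and 43.8% in animal 2. Wnt11 had only 150 reads in animal 1 and 185 in animal 2, over 6 annotated transcripts. For Wnt5a, Wnt5a-201 held 42.7% and Wnt5a-202 held 41.4% on average in the first tables, and in the second Wnt5a-202 led at 43.2%. For Fzd6, the first tables gave the nonsense-mediated-decay transcript Fzd6-204, of 750 nt, 23.4% in animal 1 and 47.0% in animal 2, and the second tables were led by the protein-coding Fzd6-202, of 4325 nt, at 41.5% on average. Fzd6 had 190 reads in animal 1 and 154 in animal 2, but its TPM was lower in animal 1, so its direction differs between reads (log2 ratio 0.28) and TPM (-0.16). Sfrp4-201 held 87.4% of Sfrp4 in animal 1 and 62.4% in animal 2, and all 4 Sfrp4 transcripts are annotated as protein-coding.

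**Figure D5:**
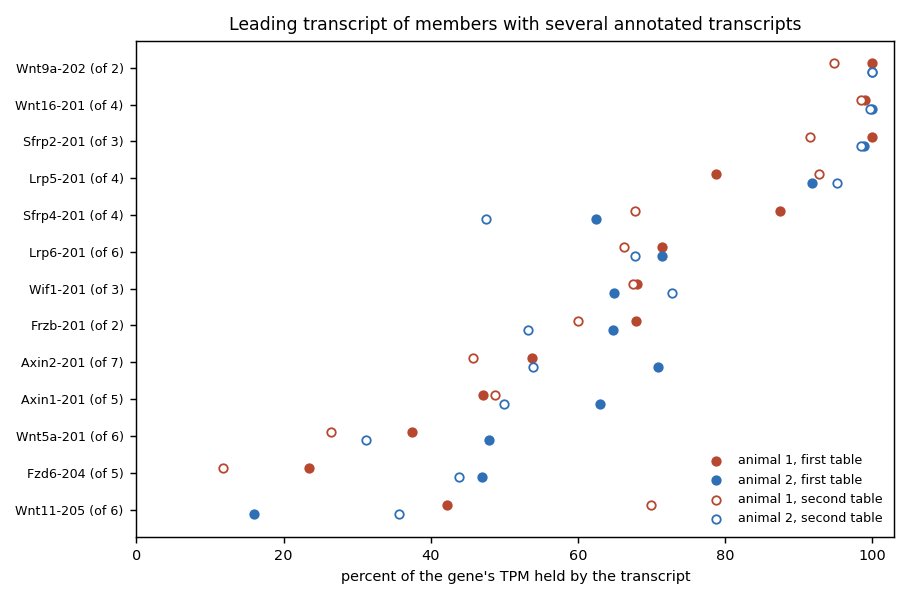
Percent of the gene's TPM held by the leading transcript of the 13 detected members with several annotated transcripts, in animal 1 (red) and animal 2 (blue), from the first (filled) and the second (open) transcript table; brackets give the number of annotated transcripts. Wnt9a-202, Wnt16-201 and Sfrp2-201 lie above 90% in both animals and both tables, and Wnt11-205 ranges from 16% to 69.9%.

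The 2 kinds of table gave the detected members in the same range but at different levels. TPM summed per gene from the second tables was a median of 1.44 times the gene table value over the 20 detected members, and 1.28 to 1.71 times in each. A TPM level is therefore tied to the table it comes from, and the values above are from the gene tables unless stated.

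Some members are neighbours in the genome (mm10, within 100 kb), and in 2 of the 4 pairs 1 gene was far above the other in both animals. Wnt9a lies on chromosome 11, 16.2 kb from Wnt3a, and had 323 reads in animal 1 and 449 in animal 2, whereas Wnt3a had none. Wnt10b lies on chromosome 15, 11.7 kb from Wnt1, and had 82 reads in animal 1 and 48 in animal 2, against 1 and 3 for Wnt1. Wnt6 and Wnt10a are 6.19 kb apart on chromosome 1. Wnt6 had 28 reads in animal 1 and 11 in animal 2, against 4 in each for Wnt10a. In animal 1 Wnt6 had 0.38 TPM and Wnt10a 0.04 TPM, and in animal 2 each had 0.14 TPM. The rise of Wnt10a in TPM was therefore not seen in its reads, and the equal TPM in animal 2 rests on 11 reads of Wnt6 and 4 of Wnt10a. Wnt9b and Wnt3, 24.3 kb apart on chromosome 11, had at most 7 reads each. The exons of 8 members overlap exons of a gene on the opposite strand, among them Sfrp2, Wnt11 and Axin2. The strand setting of the counting is not given in the sources used here, and these opposite-strand genes had 0 to 0.04 TPM.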

How the data were processed

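Total RNA sequencing of gastrocnemius from 2 animals was analysed from the deposited tables. The gene tables and first transcript tables hold expected counts and TPM made by the authors from a transcriptome alignment, in the column layout that RSEM writes, per the file headers. As deposited, they also give the percent of a gene's TPM per transcript and a posterior SD of each count, treated here as a score in reads. The second transcript tables hold estimated counts and TPM that the authors made straight from the reads, in a kallisto-type layout per the file headers. The build was mm10 with GENCODE M21, according to the file lists. Tool names, versions and a strand setting: not given in the sources used here. Reads of the CAST allele can be lost on mm10, which is a B6 genome, and this was not analysed here.

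Gene names and types came from GENCODE M21, which held all 55536 gene identifiers. Rows with no gene name (26248 per library, with 6.63e-06% of counts in animal 1 and 1.04e-05% in animal 2) and spike-ins (216554 counts in animal 1 and 185528 in animal 2) were kept out of library sizes. Expected counts were rounded to whole numbers, scaled with edgeR's TMM factors, and given a prior count of 0.5. A call means 2-fold or more at a mean count of 100 or more. Intervals are exact binomial at 95% and, like the limit of 3 counts, cover counting error only. The ratio procedure was tested on simulated data. The alternatives tried were library size, spike-in scaling, DESeq2's median of ratios, TPM ratios, other count minimums and TPM thresholds, a prior count of 5, the second transcript tables and each library alone. The TPM ratios used a pseudocount of 0.1.

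The members and all gene and marker lists were chosen with earlier results of these data known, and the motifs CCAAT and TATAAA with the promoter letters in view. Values per animal were to be given for detected and called members, for the 3 highest genes and every called gene of each pathway list, and for the 2 highest genes of a marker list that moved with a result. Genes named outside this rule, such as undetected members and Sp5, were chosen after their values were seen. Some genes that the rule names are left out here. Tables were read in Python 3.11.15 (pandas 2.3.3, numpy 2.4.6), drawn with matplotlib 3.10.9 and scaled in R 4.3.3 (DESeq2 1.42.0, edgeR 4.0.16), and intervals came from scipy 1.17.1.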

Additional observations from a re-analysis of the deposited data

How the results depend on the processing

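Of the values below, those under the main settings were 20 detected members, 3 members higher in animal 1, 3 lower in animal 1, 2 other pathway genes higher in animal 1, none lower, and a median log2 ratio of -0.03. At a threshold of 2 TPM, 13 members were detected, 28 were at 0.5 TPM, and 26 were with the second transcript tables. With a single library, the number was 22 in each case. With a mean count of 50 or more, 5 members were higher in animal 1, and 26.7% of members and 4.09% of all genes were called in either direction. With 10 or more, where these shares were 32.4% and 7.65%, 8 members and 4 other pathway genes were higher in animal 1, and the members' median was 0.24. With no filter on low counts, where they were 36.6% and 26.8%, 10 members were higher and 5 lower in animal 1, and 12 other pathway genes were higher and 1 lower. The number lower in animal 1 was also 5 under spike-in scaling and with the second transcript tables. Under DESeq2's median of ratios and a prior count of 5, the 25 ratios of named members kept their calls. No direction of a called member reversed under any alternative run. The causes of these changes were not tested. The depth limits members of under about 100 reads, where counting intervals often span 2-fold. No paired analysis was possible because there is 1 group. Leaving out a library leaves no ratio, so that was done for levels and shares only.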

Other observations

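Several pathway genes below the minimum of 100 reads were far apart between the animals, and all were named after their values were seen. With no filter on low counts, 26.8% of all genes with any read were 2-fold or more apart, 4138 of them higher and 2471 lower in animal 1. Sostdc1, a secreted inhibitor that binds Lrp co-receptors, had 42 reads in animal 1 and 5 in animal 2 (log2 ratio 2.93, counting interval 1.71 to 4.74). Celsr1, a planar polarity cadherin, had 72 reads in animal 1 and 15 in animal 2 (2.20, 1.42 to 3.15). Lgr5, an R-spondin receptor, had 13 reads in animal 1 and 1 in animal 2 (3.15, 0.94 to 9.09). In the second transcript tables the log2 ratio was 3.21 for Sostdc1, 2.46 for Celsr1 and 1.64 for Lgr5.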
